A study of Mus musculus with 4 samples.

Results

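Nuclear genes for the subunits of the respiratory chain and ATP synthase were compared between mTOR transgenic and wild-type mice, in RNA of their alveolar type II cells. The title of the series calls the transgenic mTOR active. The members were found by gene symbol: complex I (Nduf a, b, c, s and v), complex II (Sdha to Sdhd), complex III (Uqcr and Cyc1), cytochrome c (Cycs), complex IV (Cox4 to Cox8) and ATP synthase, also called complex V (Atp5). Ndufa4, named after complex I, is grouped here with complex IV, where its protein is now known to sit, and Ndufa4l2 with the isoforms. Symbols marked as pseudogenes were left out, and 85 of the 25759 symbols in the table were taken. Of these, 75 encode the usual subunits of the complexes and cytochrome c, 8 are isoforms known mainly from other tissues or states, and 2 belong to neither kind (Cox7a2l, a supercomplex factor, and Atp5s, a coupling protein). Values came from 2 libraries labelled mTOR Tg, from Sftpc-mTOR transgenic C57BL/6 mice, and 2 labelled WT, from C57BL/6 mice, all aged 14 weeks. The Sftpc promoter drives expression in surfactant-producing type II cells. The sources used here do not give the form of mTOR expressed, any inducing treatment, the sex of the mice, or whether a library came from one mouse or a pool, so the spread between libraries may be partly technical.

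The respiratory chain sits in the inner mitochondrial membrane. Complexes I and II pass electrons from NADH and succinate to ubiquinone, complex III passes them on to cytochrome c, and complex IV to oxygen. Complexes I, III and IV pump protons, and ATP synthase uses the gradient to make ATP, which type II cells spend on making and secreting surfactant. A few core subunits are encoded in mitochondrial DNA, and all others are nuclear genes whose proteins are imported. mTOR complex 1 is known to raise mitochondrial biogenesis through the transcription factor YY1 with its coactivator PGC-1alpha and through translation, which transcript counts do not measure.

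The libraries held 21972124 and 20273396 counts in mTOR Tg replicates 1 and 2, and 18146693 and 19018785 in WT replicates 1 and 2. At that depth 3 counts correspond to between 0.137 and 0.165 CPM, counts scaled to a common library size. Mtor itself was at 38.8 and 61.8 normalised CPM in mTOR Tg and at 56.7 and 56.7 in WT, so its transcript did not separate the genotypes. Whether the counts hold transgene reads is not known. Of the 4 libraries mTOR Tg replicate 1 differed most from the rest, and every result is given for each mTOR Tg library. Between replicates the biological coefficient of variation came to 0.326 for mTOR Tg and 0.0892 for WT. Summed markers of type II cells were 115834 and 150632 CPM in mTOR Tg, against 142364 and 121188 in WT. That sum is mostly Sftpc, and other type II markers were clearly lower in mTOR Tg replicate 1. Slc34a2, a phosphate transporter, was at 3877 and 9604 CPM in mTOR Tg, against 7759 and 7725 in WT, and Abca3, the surfactant lipid transporter, at 1328 and 2359 CPM in mTOR Tg, against 2306 and 2287 in WT. Lamp3 was at 921 and 2011 CPM in mTOR Tg, against 1946 and 1774 in WT, and Etv5 at 397 and 919 CPM in mTOR Tg, against 910 and 758 in WT. Of the type II markers, all but Sftpc and Sftpd were lowest in mTOR Tg replicate 1. Summed club cell markers, with all 7 genes detected, were 163073 and 57530 CPM in mTOR Tg, against 85401 and 91943 in WT, and summed ciliated cell markers (8 of 8 detected) 2895 and 1260 CPM in mTOR Tg, against 1191 and 1393 in WT. Leukocyte markers summed to 7.37 and 4.04 CPM in mTOR Tg, against 3.25 and 4.42 in WT, with Cd3e and C1qb at 0 in all libraries. Endothelial markers summed to 67.4 and 57.5 CPM in mTOR Tg, against 109 and 118 in WT, and fibroblast markers to 32.1 and 62.0 CPM in mTOR Tg, against 46.3 and 31.7 in WT. The endothelial sum was mostly Kdr, at 48.2 and 36.1 CPM in mTOR Tg, against 79.6 and 87.8 in WT. The part of these markers in the results below was not tested. In RNA from many cells, fewer cells of a type and less RNA per cell cannot be told apart.

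Of the 85 genes, 81 passed the filter on low counts. None of these 81 passed the edgeR quasi-likelihood test of mTOR Tg against WT at an adjusted p of 0.05, where 0 of 13306 genes (0%) did, and DESeq2 called none of them either. The smallest p among the members was 0.135 (adjusted p = 0.860), and none had an unadjusted p under 0.05, compared with 327 of all genes tested. The log2 fold change was above 0 for 77 of 81 members, with a median of 0.27, against 6772 of 13306 genes and a median of 0.01 overall. That median joins unlike libraries. In mTOR Tg replicate 1 the members' median lay 0.56 above the WT mean in log2 CPM, with 77 of 81 above it. In mTOR Tg replicate 2 it was -0.04, with 29 above and 52 below. The WT replicates themselves lay 0.11 apart in the median, replicate 1 being higher for 74 of 81 members. The higher values were thus those of a single mTOR Tg library, and the other library of that genotype lay, in the median, between the WT replicates.

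**Figure D1:**
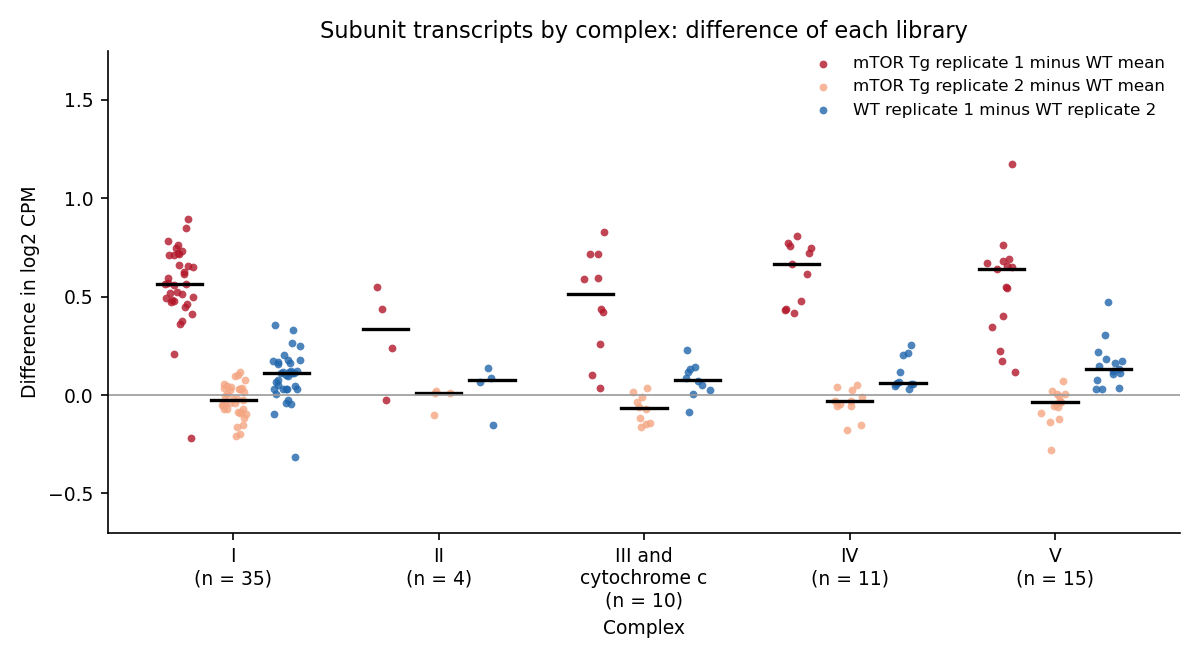
Difference in log2 CPM of each tested subunit gene, by complex, for mTOR Tg replicates 1 and 2 against the WT mean and for WT replicate 1 against WT replicate 2. Points are genes and black lines medians: replicate 1 medians run from 0.34 in complex II to 0.67 in complex IV, and replicate 2 medians from -0.06 to 0.01.

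The spread over the members was wide in replicate 1 and narrow in replicate 2. In replicate 1 the differences ran from -0.22 to 0.90 in complex I, -0.02 to 0.55 in complex II, 0.04 to 0.83 in complex III with cytochrome c, 0.42 to 0.81 in complex IV and 0.12 to 1.17 in complex V. In replicate 2 they ran from -0.21 to 0.12 in complex I, -0.10 to 0.02 in complex II, -0.16 to 0.03 in complex III with cytochrome c, -0.18 to 0.05 in complex IV and -0.28 to 0.07 in complex V. The tissue-restricted isoforms are not in these ranges and are described further on.

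Without mTOR Tg replicate 1 the members' median was -0.04, 28 were above 0 and 53 below, and none was called (1 at an unadjusted p under 0.05), where 1.25% of genes were called higher and 0.948% lower. Without mTOR Tg replicate 2 the median was 0.56 and 66 of 81 were called higher and none lower, where 21.8% of all genes were called higher and 23.6% lower. That fit rests on 1 mTOR Tg library, which is assumed to vary as the WT pair does, and compares that library with WT rather than the genotypes. Both mTOR Tg libraries exceeded both WT libraries for 9 of 81 members, fewer in share than among all genes (17.6%), and both lay below for 1 member, Atp5s (17% of all genes). Among the 9 were Ndufs4, Ndufs6, Ndufa7, Ndufb9, Uqcrb, Cox6c, Cox6b2 and Atp5f1. Together the 85 genes took 0.858% and 0.653% of counts in mTOR Tg (mean 0.756 ± 0.145%), against 0.676% and 0.653% in WT (mean 0.664 ± 0.0162%, SD, n = 2 each). An exact two-sided permutation test of 2 against 2 libraries cannot give a p under 0.333.

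The level per length of transcript put the complexes in one order in each of the 4 libraries. The median CPM per kb was highest for complex IV (239 and 160 in mTOR Tg, 170 and 162 in WT). Complex V followed (203 and 122 in mTOR Tg, 139 and 128 in WT), then complex III with cytochrome c (120 and 86.6 in mTOR Tg, 89.1 and 85.2 in WT). Complex I was lower (89.4 and 58.6 in mTOR Tg, 59.0 and 60.3 in WT) and complex II lowest (59.0 and 40.7 in mTOR Tg, 41.5 and 42.8 in WT). The median over all genes tested was between 7.43 and 7.97 CPM per kb in the 4 libraries. These levels describe genes with several copies or overlaps less well: 14 members share over 20% of the 50-base words of their transcripts with other genes, up to 87.4% in Atp5g2 and 68.5% in Atp5l, and the counts of these are uncertain. Ndufb6 and Ndufa13 share 39% and 30% of their exon bases with a gene on the opposite strand, and no source used here says whether the libraries kept strand.

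Complex I takes electrons from NADH. All but Ndufs1 of its 35 members lay above WT in mTOR Tg replicate 1 (median 0.57), while the replicate 2 median was -0.03. The module that binds NADH and takes in its electrons (10 genes) had medians of 0.64 and 0.01 in the 2 mTOR Tg libraries, the module that reduces ubiquinone (6 genes) 0.56 and -0.06, and the accessory subunits of the membrane arm (19 genes) 0.56 and -0.04. Ndufs6, a zinc-binding subunit of the NADH module, had the smallest p of the complex. It was at 73.1 and 42.7 normalised CPM in mTOR Tg, against 40.6 and 40.4 in WT (log2 fold change 0.52, SE 0.29, edgeR adjusted p = 0.860). Only replicate 1 was well clear of WT, although both mTOR Tg values exceeded both WT values. Ndufb9, a membrane arm subunit, was at 65.3 and 44.5 CPM in mTOR Tg, against 42.1 and 41.2 in WT.

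Ndufs1, the largest iron-sulphur subunit, went the other way in replicate 1. It was at 42.4 and 50.6 CPM in mTOR Tg, against 48.6 and 50.2 in WT (log2 fold change -0.09, SE 0.20, edgeR adjusted p = 0.911), so that the groups overlapped. Ndufv1, which carries the NADH site, was at 99.7 and 61.5 CPM in mTOR Tg, against 67.1 and 62.0 in WT. Replicate 1 was thus the highest library for Ndufv1 and the lowest for Ndufs1, although both belong to the NADH module. Ndufa9, which stabilises the joint of the 2 arms, was at 64.1 and 45.9 CPM in mTOR Tg, against 51.9 and 47.9 in WT. Ndufs4, an accessory subunit whose loss in mice and people causes complex I deficiency, was at 37.6 and 25.8 CPM in mTOR Tg, against 25.2 and 22.4 in WT. At 0.12 above the WT mean it was among the 3 highest members in replicate 2, within the 0.17 that parted the WT replicates. Ndufa11, a membrane arm subunit, lay 0.90 above WT in replicate 1 and was at 55.1 and 27.8 CPM in mTOR Tg, against 30.1 and 29.1 in WT. Ndufc2 and Ndufa3, membrane arm subunits, had the highest levels per length in the complex and were close to each other. Ndufc2 was at 214 and 160 CPM per kb in mTOR Tg, against 193 and 178 in WT, and Ndufa3 at 259 and 169 CPM per kb in mTOR Tg, against 178 and 139 in WT. The genotypes overlapped for both.

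Complex II, succinate dehydrogenase, is also an enzyme of the citric acid cycle, and is the only complex whose subunits are all nuclear. Its flavoprotein Sdha, which oxidises succinate, had overlapping groups, at 213 and 218 CPM in mTOR Tg, against 227 and 206 in WT (log2 fold change -0.01, SE 0.19, edgeR adjusted p = 0.993). Its iron-sulphur partner Sdhb was at 63.2 and 43.5 CPM in mTOR Tg, against 44.5 and 41.9 in WT (log2 fold change 0.30, SE 0.25, edgeR adjusted p = 0.860). Here too replicate 1 alone stood above WT. The membrane anchors were at 87.1 and 74.8 CPM in mTOR Tg, against 75.6 and 72.0 in WT for Sdhc, and at 77.2 and 53.2 CPM in mTOR Tg, against 54.2 and 60.1 in WT for Sdhd.

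Complex III and cytochrome c had all 10 members above the WT mean in replicate 1 (median 0.51) and 8 of 10 below it in replicate 2 (median -0.06). The small subunit Uqcr11 was highest per length and had the smallest p, at 138 and 74.6 CPM in mTOR Tg, against 81.6 and 73.8 in WT (log2 fold change 0.45, SE 0.32, edgeR adjusted p = 0.860). Uqcrb, which binds near the ubiquinone site, was at 89.1 and 67.4 CPM in mTOR Tg, against 67.1 and 64.6 in WT. The core proteins differed from each other. Uqcrc1 was at 122 and 76.5 CPM in mTOR Tg, against 80.4 and 80.2 in WT (log2 fold change 0.30, SE 0.27, edgeR adjusted p = 0.860), and Uqcrc2 at 89.1 and 87.9 CPM in mTOR Tg, against 84.3 and 89.7 in WT. Uqcrfs1, the Rieske iron-sulphur protein, was at 66.7 and 55.4 CPM in mTOR Tg, against 56.2 and 55.3 in WT. Cyc1, cytochrome c1, was at 104 and 71.8 CPM in mTOR Tg, against 80.3 and 75.6 in WT. Cycs, the mobile carrier to complex IV and a trigger of apoptosis once released, was at 42.3 and 38.4 CPM in mTOR Tg, against 41.0 and 37.8 in WT, and its groups overlapped. Its counts are uncertain, since its transcript shares 28.2% of its 50-base words with other genes, mainly Gm10053. Gm10053 was at 39.3 and 31.4 CPM in mTOR Tg, against 31.6 and 32.2 in WT.

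Complex IV, cytochrome c oxidase, had the largest median of the complexes in replicate 1 (0.67, 11 of 11 above WT), with a median of -0.03 in replicate 2. Its transcripts were also the shortest of the complexes, with a median of 606 bases. Cox6a1 was the most abundant subunit per length in each library, at 765 and 444 CPM per kb in mTOR Tg, against 455 and 419 in WT. Its log2 fold change was 0.47 (SE 0.30, edgeR adjusted p = 0.860). Cox4i1, the regulatory subunit to which ATP binds, was at 429 and 245 CPM in mTOR Tg, against 259 and 249 in WT (log2 fold change 0.41, SE 0.31, edgeR adjusted p = 0.860), so replicate 2 was the lowest library and replicate 1 the highest. Cox5b, a zinc-binding subunit, was at 111 and 66.8 CPM in mTOR Tg, against 69.9 and 60.4 in WT (log2 fold change 0.45, SE 0.29, edgeR adjusted p = 0.860). Cox5a was at 50.1 and 28.3 CPM in mTOR Tg, against 32.0 and 31.0 in WT, and Cox8a, the smallest subunit, at 226 and 129 CPM in mTOR Tg, against 144 and 125 in WT. Cox6c was at 143 and 110 CPM in mTOR Tg, against 107 and 105 in WT, and Cox7a2 at 62.7 and 46.5 CPM in mTOR Tg, against 47.9 and 45.9 in WT. Among these genes replicate 2 departed most from WT for Cox5a, at -0.15 in log2 CPM.

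ATP synthase divides into the catalytic F1 head with its stalks (9 genes) and the Fo part in the membrane (6 genes). The head and stalks had medians of 0.40 and -0.03 in the 2 mTOR Tg libraries, and the membrane part 0.66 and -0.05. Atp5b, the catalytic beta subunit, was at 655 and 505 CPM in mTOR Tg, against 522 and 509 in WT (log2 fold change 0.17, SE 0.23, edgeR adjusted p = 0.861). Atp5a1, the alpha subunit beside it, was at 600 and 533 CPM in mTOR Tg, against 538 and 526 in WT (log2 fold change 0.09, SE 0.20, edgeR adjusted p = 0.906). Atp5e, the smallest subunit of the head, was highest per length, at 516 and 291 CPM per kb in mTOR Tg, against 327 and 281 in WT. The genes of the proton-carrying c ring encode one mature protein. Atp5g1 was at 64.0 and 38.7 CPM in mTOR Tg, against 41.8 and 38.7 in WT, Atp5g2 at 173 and 104 CPM in mTOR Tg, against 118 and 104 in WT, and Atp5g3 at 146 and 87.5 CPM in mTOR Tg, against 91.3 and 89.4 in WT. Per kb of transcript the order was Atp5g2, Atp5g3, Atp5g1 in every library.

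Atp5k, subunit e at the dimer interface, was the only member over 2-fold above WT in replicate 1. It was at 66.4 and 29.9 CPM in mTOR Tg, against 34.6 and 24.95 in WT (log2 fold change 0.69, SE 0.41, edgeR adjusted p = 0.860). Replicate 1 lay 1.17 above the WT mean in log2 CPM, while the WT replicates differed by 0.47. Atp5l, subunit g of the same interface, was among the 3 lowest members in replicate 2, at 106 and 59.8 CPM in mTOR Tg, against 75.7 and 69.5 in WT. Atp5s, which couples the head to the membrane part, was the one member below WT in both mTOR Tg libraries, at 8.14 and 7.66 CPM, against 10.3 and 9.65 in WT (log2 fold change -0.33, SE 0.22, edgeR adjusted p = 0.860). Cox7a2l, the supercomplex factor, was at 138 and 107 CPM in mTOR Tg, against 122 and 103 in WT.

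**Figure D2:**
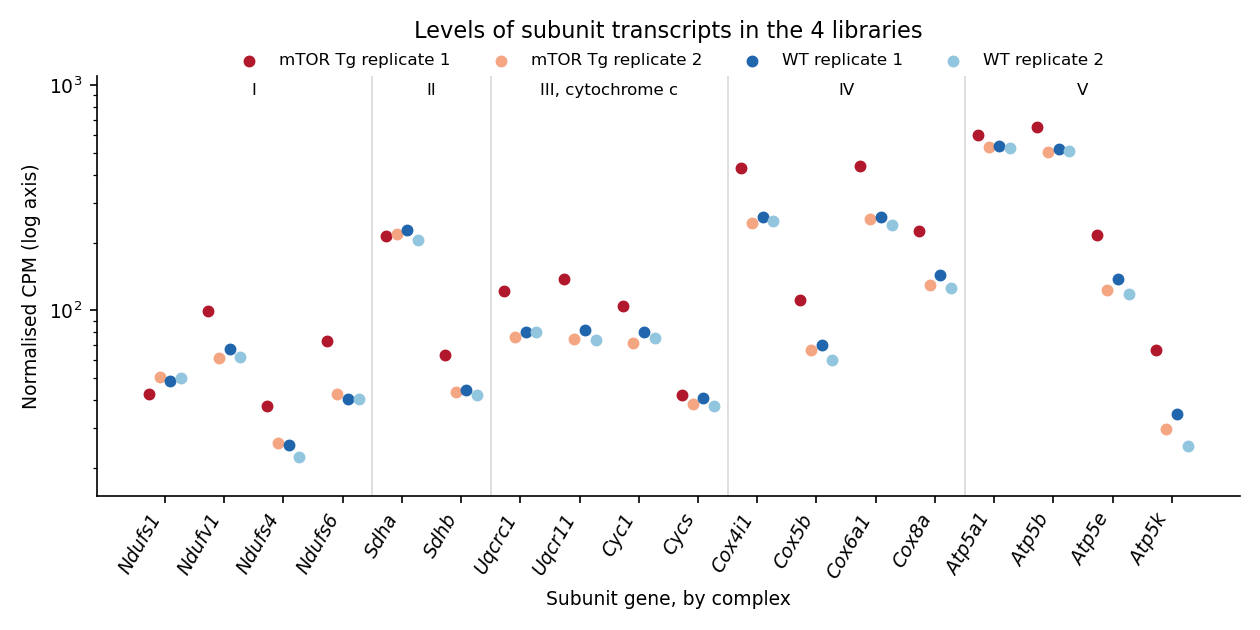
Normalised CPM on a log axis of 18 subunit genes in the 4 libraries, grouped by complex. mTOR Tg replicate 1 lies highest for most, up to 655 CPM for Atp5b, while for Ndufs1 it is lowest (42.4 CPM) and Sdha, Cycs and Atp5a1 lie close together in all libraries.

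The division of counts between the complexes was almost the same in 3 libraries and different in mTOR Tg replicate 1. Complex IV took 20.9% and 18.6% of the counts of the 85 genes in mTOR Tg, against 18.6% and 18.6% in WT. Complex II took 4.76% and 6.15% in mTOR Tg, against 5.96% and 6.07% in WT, and complex V 32.8% and 34.5% in mTOR Tg, against 34.5% and 34.5% in WT. Complex I took 28.7% and 27.7% in mTOR Tg, against 27.7% and 27.7% in WT. The share of complex III with cytochrome c ran from 10.5% to 10.9% over all 4 libraries. Transcripts were shortest in complex IV and longest in complex II (medians of 606 and 1612 bases). The part of length in this division was not tested.

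**Figure D3:**
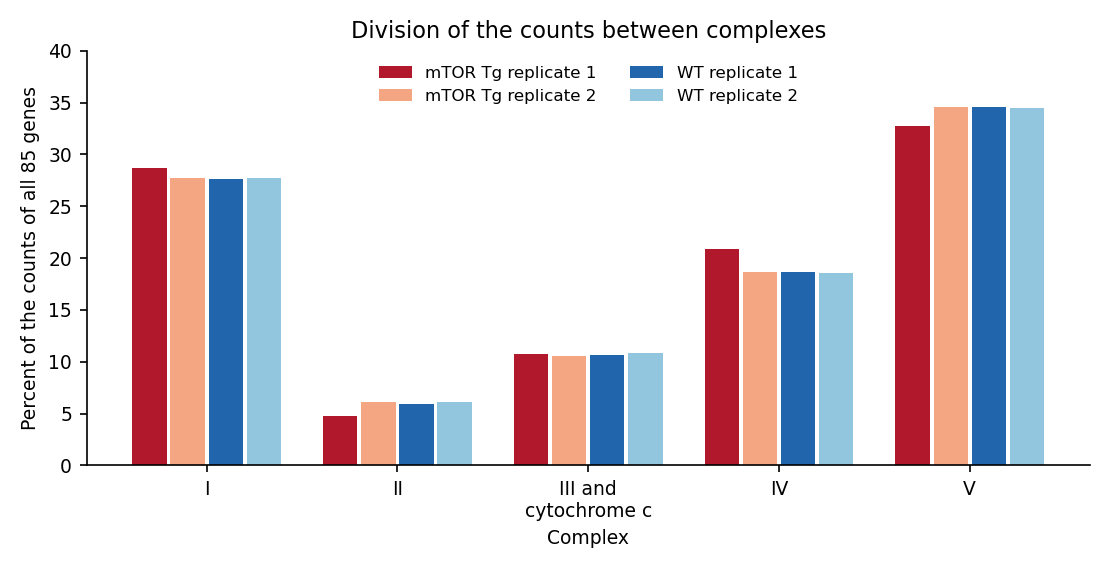
Percent of the counts of all 85 genes that each complex took in each library. The bars of mTOR Tg replicate 2 and both WT replicates are nearly level in every complex, and mTOR Tg replicate 1 has more of complex IV (20.9%) and less of complex II (4.76%).

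The members' difference in replicate 1 varied with transcript length, with exceptions at both ends. Across the 81 members, the difference of replicate 1 from WT was smaller the longer the transcript (on log2 length, Pearson's r -0.54, Spearman's rho -0.47, n = 81 genes, which share the libraries and are not independent replicates). Across all 13221 genes with a length the values were -0.50 and -0.54. In replicate 2 the members gave 0.10 and 0.085. The difference between the WT replicates (replicate 1 minus replicate 2) also varied with length, at r -0.20 and rho -0.21 over the members and -0.16 and -0.25 over all genes. Over the 15 complex V genes it gave r -0.69, as did mTOR Tg replicate 1 against WT, though the WT differences were smaller (0.03 to 0.47, against 0.12 to 1.17). The short Ndufc2 (576 bases) lay at 0.21 in mTOR Tg replicate 1, below most short members. Subunit transcripts are short, with a median of 745 bases, against 2693 for all genes tested. Within each of the 6 length classes that held members, the members lay somewhat above the other genes in replicate 1, with no test made. Between 500 and 750 bases, 30 members had a median of 0.63 and 346 other genes 0.59 in replicate 1. Between 1000 and 1500 bases, 11 members had 0.44 and 1433 other genes 0.39, and between 2000 and 3500 bases, 7 members had 0.17 and 4568 other genes 0.01. These 7 were of 2 kinds: Cycs (3123 bases), Sdha (2900), Ndufs1 (2625) and Atp5a1 (2572) lay between -0.22 and 0.17, while Atp5g1 (2675), Ndufb2 (2413) and Ndufa10 (2020) lay at 0.67, 0.46 and 0.49. With a length trend removed from each library, the members' median was 0.08 in replicate 1 and -0.03 in replicate 2, and the median log2 fold change was 0.02, with 48 above 0 and 33 below. In replicate 1 the medians were then 0.12 in complex V, 0.11 in IV, 0.09 in III with cytochrome c, 0.08 in I and 0.05 in II. Before the correction they fell in the order of median transcript length. From short to long that order was complex IV (606 bases), V (747), I (782), III with cytochrome c (949) and II (1612).

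**Figure D4:**
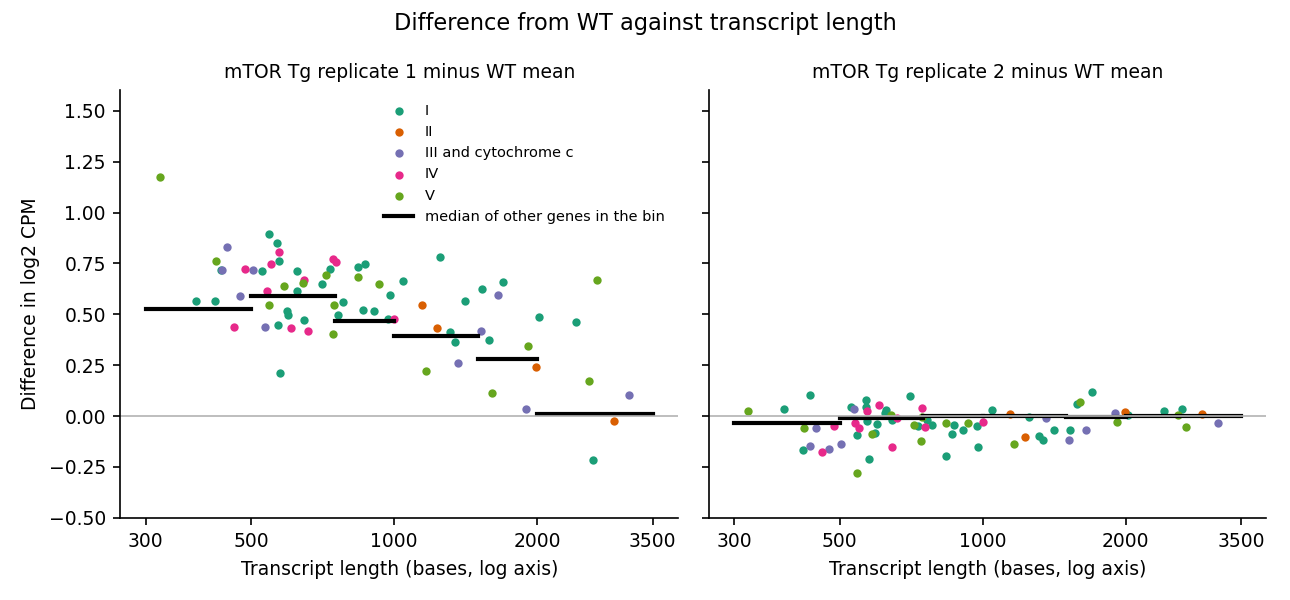
Difference in log2 CPM from the WT mean against transcript length (log axis) for the subunit genes, coloured by complex, in mTOR Tg replicate 1 (left) and replicate 2 (right). Black lines are medians of the other genes in each length class, and in replicate 1 both points and lines stand lower for longer transcripts, with line medians of 0.59 at 500 to 750 bases and 0.01 at 2000 to 3500.

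Isoforms of restricted tissues were described as a share of the counts of each isoform pair, with 95% exact intervals that cover counting error only. Cox6a2, the heart and skeletal muscle form of subunit VIa, was well above the floor in all libraries, at 36.3 and 28.5 CPM in mTOR Tg, against 29.4 and 20.003 in WT (log2 fold change 0.39, SE 0.27, edgeR adjusted p = 0.860). It took 7.68% (7.16 to 8.23) and 10.1% (9.34 to 10.9) of the Cox6a counts in mTOR Tg, against 10.2% (9.36 to 11.01) and 7.71% (6.997 to 8.475) in WT. The share differed between replicates of each genotype beyond counting error and did not follow genotype. Of the 6 heart markers, Tnni3 carried most of the sum and was highest in replicate 1, with 194 and 84 counts in mTOR Tg, against 43 and 73 in WT. Actc1 had 15 and 4 counts in mTOR Tg, against 17 and 15 in WT. The others were near 0: Tnnt2 had 1 and 0 counts in mTOR Tg and 0 and 0 in WT, Myh6 had 1 and 4 in mTOR Tg and 3 and 3 in WT, and Myl7 and Nppa had at most 2 in any library. Summed heart markers were 9.69 and 4.64 CPM in mTOR Tg, against 3.58 and 4.78 in WT, and summed brown fat markers were 7.56 and 9.42 CPM in mTOR Tg, against 7.22 and 8.68 in WT. The brown fat sum came from Cidea, with 126 and 29 counts in mTOR Tg, against 34 and 49 in WT, and Ppara, with 40 and 162 counts in mTOR Tg, against 97 and 115 in WT. Ucp1 had 0 and 0 counts in mTOR Tg and 0 and 1 in WT, and Adipoq none. The part of these markers in the Cox6a2 values was not tested. Itgad, which overlaps Cox6a2 on the opposite strand, had no count in any library.

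Cox6b2, known from testis, took 6.17% and 8.66% of Cox6b counts in mTOR Tg, against 7.96% and 7.86% in WT, from 178 and 154 counts in mTOR Tg and 129 and 133 in WT. Cox7a1, the muscle form of subunit VIIa, took 4.13% and 2.90% of Cox7a counts in mTOR Tg, against 5.22% and 3.81% in WT. It was the lowest member in replicate 2, at 0.62 below the WT mean, while the WT replicates were 0.51 apart. Cox4i2, a form known from lung and induced by low oxygen, had 13 and 21 counts in mTOR Tg, against 20 and 9 in WT, and took at most 0.422% of Cox4i counts. Smooth muscle and pericyte markers, from cells where Cox4i2 is known in lung, summed to 28.5 and 20.9 CPM in mTOR Tg, against 46.8 and 44.5 in WT, with Higd1b at 0 in all. Most of that sum was Notch3, at 20.2 and 14.9 CPM in mTOR Tg, against 30.9 and 32.4 in WT. The other 4 isoforms were under the filter. Ndufa4l2, induced by low oxygen, had 4 and 0 counts in mTOR Tg and 1 and 1 in WT, while its partner Ndufa4 was at 129 and 84.5 CPM in mTOR Tg, against 97.3 and 93.7 in WT. Cox8b had 0 and 2 counts in mTOR Tg and 0 and 0 in WT, where a count of 0 allows a share of the Cox8 pair of up to 0.114% and 0.121% at the limit of 3 counts, with upper ends of the exact intervals at 0.140% and 0.149%. Cox7b2 and Cox8c had no count in any library.

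**Figure D5:**
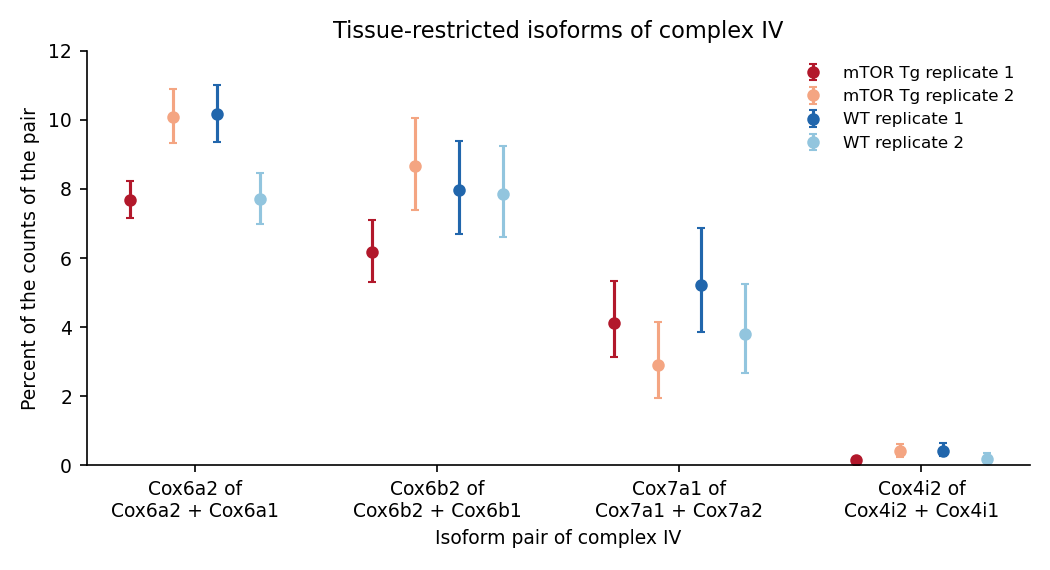
Percent of the counts of each isoform pair taken by the tissue-restricted form, with 95% exact intervals, in the 4 libraries. Cox6a2 is at 7.68% and 10.1% in mTOR Tg and at 10.2% and 7.71% in WT, and no pair separates the genotypes.

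Most subunit transcripts stood high in replicate 1, as did other genes of like length (medians of 0.63 and 0.59 between 500 and 750 bases). The windows around the subunit genes' start sites were searched for short motifs of factors known for respiratory genes. Transcript length was not taken into account in the motif values. RefSeq windows on build GRCm38.p6, from 250 bases before to 50 after the start, matched 69 of 85 members and 10411 of the genes tested. The NRF1 letters GCGCANGCG, on either strand, were in the windows of 21 of 69 members (30.4%), against 14.9% of genes tested. The YY1 letters AANATGGCG were in 10 of 69 (14.5%), against 5.66%, the GABPA and ETS letters CCGGAAG in 16 of 69 (23.2%), against 19.6%, and the ERR alpha letters AAGGTCA in 8 of 69 (11.6%), against 3.98%. The SP1 letters GGGCGG were in 29 of 69 (42%), against 68.7%. Medians of members with and without a motif were near each other in replicate 1, and the gaps ran in both directions. The 21 with the NRF1 letters had a median difference of 0.60 from WT and the 46 tested members without them 0.56, and in replicate 2 the medians were -0.05 and -0.04. For the YY1 letters the medians in replicate 1 were 0.55 with (10 members) and 0.57 without (57), and for the ERR alpha letters 0.52 with (8) and 0.57 without (59). The widest gaps were for the GABPA and ETS letters, at 0.66 with (16) and 0.55 without (51), and for the SP1 letters, at 0.50 with (28) and 0.62 without (39). The 150 bases before the start are shown for 2 genes among the highest in replicate 1 (Cox6a1, Uqcr11), for Cycs, which did not stand out, and for Atp5e, the highest per length in complex V. Letters run 5′ to 3′ on the gene's own strand, and capitals mark any of these motifs on either strand.
Cox6a1: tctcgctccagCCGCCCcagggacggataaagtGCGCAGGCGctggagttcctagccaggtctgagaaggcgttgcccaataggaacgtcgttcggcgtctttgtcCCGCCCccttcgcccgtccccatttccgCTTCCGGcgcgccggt
Uqcr11: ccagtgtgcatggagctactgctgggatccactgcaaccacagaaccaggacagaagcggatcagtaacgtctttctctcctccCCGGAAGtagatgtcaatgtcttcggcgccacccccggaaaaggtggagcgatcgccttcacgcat
Cycs: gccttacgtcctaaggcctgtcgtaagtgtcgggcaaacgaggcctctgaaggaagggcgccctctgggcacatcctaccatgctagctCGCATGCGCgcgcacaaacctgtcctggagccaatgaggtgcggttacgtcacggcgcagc
Atp5e: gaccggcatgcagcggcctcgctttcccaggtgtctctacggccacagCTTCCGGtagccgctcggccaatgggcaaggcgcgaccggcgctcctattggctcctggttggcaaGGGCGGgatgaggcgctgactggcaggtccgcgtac
The Cox6a1 stretch is chr5:115348959-115349108 on the minus strand and holds the NRF1 letters 117 to 109 bases before the start and the ETS letters 16 to 10 before it, with the SP1 letters at 139 to 134 and 44 to 39. Its last 23 bases, which include the ETS letters, lie in a GENCODE exon of Cox6a1. The Uqcr11 and Atp5e stretches likewise hold 9 and 4 exon bases of their own genes. The Uqcr11 stretch is chr10:80406822-80406971, minus strand, with the ETS letters 66 to 60 bases before the start. The Cycs stretch is chr6:50566570-50566719, minus strand, with the NRF1 letters 61 to 53 bases before the start. The Atp5e stretch is chr2:174464102-174464251, minus strand, with the ETS letters at 102 to 96 and the SP1 letters at 36 to 31. Cox6a1 and Cycs thus both carry the NRF1 letters in these stretches, and lay 0.81 and 0.10 above WT in replicate 1. The window of Uqcr11, which lay 0.83 above WT in replicate 1, also holds the NRF1 letters, but not within the stretch shown. Likewise the Cycs window holds the SP1 letters and the Atp5e window the ERR alpha letters. A match is a run of letters and says nothing of binding.

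Genes that serve the chain were followed as lists, in which neither edgeR nor DESeq2 called any gene and only Esrrg had an unadjusted edgeR p under 0.05. Assembly factors of complex I, listed together with the subunit Ndufab1, had 15 of 18 tested members above 0 in log2 fold change (median 0.26). The list's medians over WT were 0.47 and 0.09 in the 2 mTOR Tg libraries. Timmdc1, which builds the membrane arm, had the smallest p, at 14.5 and 12.5 CPM in mTOR Tg, against 9.99 and 8.89 in WT (log2 fold change 0.52, SE 0.23, edgeR adjusted p = 0.860). Each mTOR Tg library was above the WT mean, by 0.62 and 0.41 in log2 CPM, and the genotypes did not overlap. Assembly factors of complexes II to V had 24 of 36 above 0 (median 0.14), with medians of 0.25 and 0.03. Cox14, an assembly factor of complex IV, was at 86.2 and 49.9 CPM in mTOR Tg, against 49.7 and 45.1 in WT (log2 fold change 0.52, SE 0.30, edgeR adjusted p = 0.860). Sco2, a copper chaperone of complex IV, had 513 and 0 counts in mTOR Tg, against 0 and 56 in WT, so each genotype held both a library with counts and one without. The adenine nucleotide and phosphate carriers had medians of 0.28 and -0.04 in the 2 mTOR Tg libraries, with 3 of 3 tested above 0. With the length trend removed, the median log2 fold change was 0.12 for complex I assembly (14 of 18 above 0), 0.003 for assembly of complexes II to V (18 of 36) and -0.02 for the carriers (0 of 3).

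The citric acid cycle, which feeds complexes I and II, had 9 of 13 genes above 0 (median 0.13), with medians of 0.18 and 0.06 in the 2 mTOR Tg libraries. Fh1, fumarate hydratase, which follows succinate dehydrogenase in the cycle, was at 86.1 and 76.5 CPM in mTOR Tg, against 57.1 and 60.9 in WT. Its log2 fold change was 0.46 (SE 0.19, unadjusted p = 0.0553, edgeR adjusted p = 0.860), and both mTOR Tg libraries lay clear of WT. It was 0.37 without mTOR Tg replicate 1 and 0.54 without replicate 2. Suclg1, a subunit of succinyl-CoA ligase, was at 119 and 101 CPM in mTOR Tg, against 85.5 and 82.8 in WT. Regulators of mitochondrial biogenesis had 5 of 16 above 0 (median -0.14), with medians of -0.28 and -0.01. With the length trend removed, the median was -0.04 for the regulators (7 of 16 above 0) and 0.05 for the citric acid cycle (8 of 13). Esrrg, an oestrogen-related receptor that activates respiratory genes, had the smallest p, at 2.89 and 2.44 CPM in mTOR Tg, against 4.61 and 5.10 in WT (log2 fold change -0.86, SE 0.28, unadjusted p = 0.0233, edgeR adjusted p = 0.860). It lay below WT in both mTOR Tg libraries. Gabpa, the DNA-binding part of GABP, was at 14.0 and 32.2 CPM in mTOR Tg, against 33.9 and 37.0 in WT (log2 fold change -0.62, SE 0.40, edgeR adjusted p = 0.860), so replicate 1 alone was far below. The 13 mitochondrially encoded subunits did not stand high in replicate 1: their median was -0.12, with 4 of 13 above the WT mean, and in replicate 2 the median was 0.01. In replicate 1 they ran from mt-Nd5 at -1.45 to mt-Nd3 at 0.25, with mt-Co1 at -0.52. Their median log2 fold change was -0.07 (3 of 13 above 0), and -0.28 (0 of 13) with the length trend removed. The replicate 1 median was then -0.61. That trend was fitted over all genes tested that had a length, and uses annotated gene lengths (297 bases for mt-Nd4l, 204 for mt-Atp8). Whether these lengths and the trend hold for mitochondrial transcripts was not tested, so the corrected values of these 13 genes are uncertain.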

How the data were processed

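Counts of reads per gene symbol, as deposited by the authors in a table of the 4 libraries, were used. Per the submitters' processing notes HISAT2, edgeR and build mm10 were used; no source used here gives the counting program, annotation or strandedness. Genes were filtered with filterByExpr (minimum count 10) and tested with edgeR 4.0.16 in R 4.3.3 (TMM, quasi-likelihood test, genotype as the only term), with Benjamini-Hochberg adjustment over 13306 genes. Normalised CPM use TMM-scaled library sizes, and log2 CPM a prior count of 2. Differences per library are from the mean log2 CPM of WT. Transcript lengths are medians of GENCODE M21 protein-coding transcripts (25134 symbols matched). Promoter windows are RefSeq's. Intervals and floors cover counting error only, since no molecular identifiers mark which reads are independent. The code was tested on simulated counts.

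The members and lists were chosen with earlier results of these data known. Named genes were, in each complex, those with the smallest p, the highest level per kb, best known subunits, the extremes of each mTOR Tg library and all restricted isoforms; a further subunit that the rule lists is not reported here. Alternatives were DESeq2 1.42.0, limma-voom (limma 3.58.1), other scaling, filters, a length correction, a replicate block and leaving out each library.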

Additional observations from a re-analysis of the deposited data

How the results depend on the processing

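No member was called under any alternative that kept all 4 libraries. Their median log2 fold change (0.27) was 0.19 to 0.28 under other scaling, filters and tests and 0.019 with the length correction, which also brought the replicate 1 difference to 0.078. Over all genes, DESeq2 called 12. The replicate block called 37 (22 higher, 15 lower) but no member; same-numbered libraries deviated together at r of 0.07 over 13306 genes, so the numbers were not taken to pair them. Leaving out a library gave 11 to 6197 genes called (299 and 6197 with mTOR Tg replicates 1 and 2 left out in turn, 11 and 15 with WT replicates 1 and 2), 0 to 66 members called, and members' medians of -0.038 to 0.56. Without mTOR Tg replicate 1 the medians of complexes I, III, IV and V were -0.030, -0.065, -0.038 and -0.039. Then 28 of 81 members were above 0, against 77 with all libraries. Subunits whose sign changed included Cyc1 (0.18 to -0.12), Cox5a (0.32 to -0.15) and Sdhd (0.19 to -0.10). Among only the 19 genes given above with an SE, 14 of them members, the sign changed for 6. Over the left-out libraries the log2 fold changes of these 6 ran from -0.22 to 0.036 for Ndufs1, -0.075 to 0.060 for Sdha, -0.060 to 0.83 for Uqcr11, -0.070 to 0.60 for Uqcrc1, -0.054 to 0.76 for Cox4i1 and -0.030 to 0.34 for Atp5b. Without mTOR Tg replicate 2 the complex II median was 0.34, and each of these 19 genes kept its direction. Sdha also changed sign with the length correction (0.019) and without WT replicate 1 (0.060). Without Scgb1a1 and Sftpc in the totals the members took 1.08% and 0.744% of counts in mTOR Tg, against 0.792% and 0.758% in WT. The causes of these changes were not tested. With 2 libraries per genotype the spread of the mTOR Tg pair limits what can be called, and depth limits the isoforms with under 60 counts.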

Other observations

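Several genes of the same machinery carry symbols outside the rule. Atpif1, the inhibitor of ATP synthase, was at 127 and 76.8 normalised CPM in mTOR Tg, against 81.7 and 69.4 in WT. Usmg5, a small subunit of ATP synthase, was at 84.7 and 55.4 CPM in mTOR Tg, against 56.7 and 52.9 in WT. Both showed the pattern of the members, with replicate 1 alone well above WT (by 0.76 and 0.63 in log2 CPM) and replicate 2 at 0.03 and 0.02. Ndufab1, a subunit of complex I, was at 46.9 and 31.5 CPM in mTOR Tg, against 31.8 and 31.0 in WT. Cyct, the testis form of cytochrome c, had 3 and 0 counts in mTOR Tg and 0 and 1 in WT.

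The counts of Sco2 (513 and 0 in mTOR Tg, 0 and 56 in WT) held a 0 in each genotype. Tymp, which overlaps it on the same strand, had 1453 and 611 counts in mTOR Tg, against 596 and 711 in WT, and Ncaph2, on the opposite strand, 1669 to 2608 counts over the 4 libraries. How shared reads were assigned between these genes was not tested.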
